A study of Mus musculus with 16 samples.

Results

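The effect of Rictor deletion that is common to unchallenged and DSS-treated colonic epithelium was measured over all 16 of the 16 RNA sequencing libraries of the study, with 8 libraries of each genotype. The cKO libraries came from colonic epithelial cells of mice with a floxed Rictor allele and the Villin-Cre transgene on normal water, and the cKO_DSS libraries from the same genotype given 3% DSS (dextran sulfate sodium), which damages the lining of the colon and causes colitis. The WT and WT_DSS libraries came from mice labelled Villin-Cre alone, on water or DSS, so that by the labels every group carried the Cre transgene. The Villin promoter drives Cre in the intestinal epithelium, and other cells of the colon keep their floxed allele. Age, sex, pooling and duration of treatment are not given by the labels, and nothing says that the 4 libraries of a group came from separate animals, so that each p-value speaks only for the spread among these libraries.

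Rictor is the scaffold that sets mTOR complex 2 (mTORC2) apart from complex 1, and the kinase mTOR within it acts downstream of insulin and growth factor receptors. mTORC2 phosphorylates the hydrophobic motif of AKT and of SGK kinases, and AKT in turn keeps FOXO transcription factors out of the nucleus. The same receptors also feed the RAS, RAF, MEK and ERK cascade, whose output is read from genes such as the DUSP phosphatases, Sprouty proteins and ETV transcription factors, many of which restrain the cascade that induced them.

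For each of the 13255 of 56268 genes that reached 1 FPKM in 4 or more libraries, the log2 difference was the mean of cKO minus WT and of cKO_DSS minus WT_DSS in log2(FPKM + 1), a scale that understates changes of low genes. Across these genes, 182 (1.37%) passed an adjusted p of 0.05 (limma, additive model with treatment as block, Benjamini-Hochberg adjustment), of which 96 (0.724%) were higher and 86 (0.649%) lower in the Rictor-deleted libraries. All 182 had the same sign in both treatments, against 42.1% of all kept genes. The additive model leaves a disagreement between the treatments in its residual and so favours such genes. For 85 of the 182 no cKO library overlapped a WT library and no cKO_DSS library a WT_DSS library, 52 of them higher and 33 lower, against 116 (0.875%) of all kept genes. The absolute log2 difference of the 182 had a median of 0.53, and 138 of them differed more after DSS than on water. In the interaction of genotype and treatment, 0 of the 182 passed an adjusted p of 0.05 (limma). Among all kept genes only 20 (0.151%) did, and the additive model favours genes without an interaction. The 0 therefore does not show an equal effect in both treatments. An unadjusted interaction p under 0.05 was found for 32 of the 182 (limma). Within single treatments, 9 of the 182 were among the 12 genes (0.0905%) called on water, 116 were among the 491 (3.7%) called after DSS, and 63 were called in neither.

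**Figure D1:**
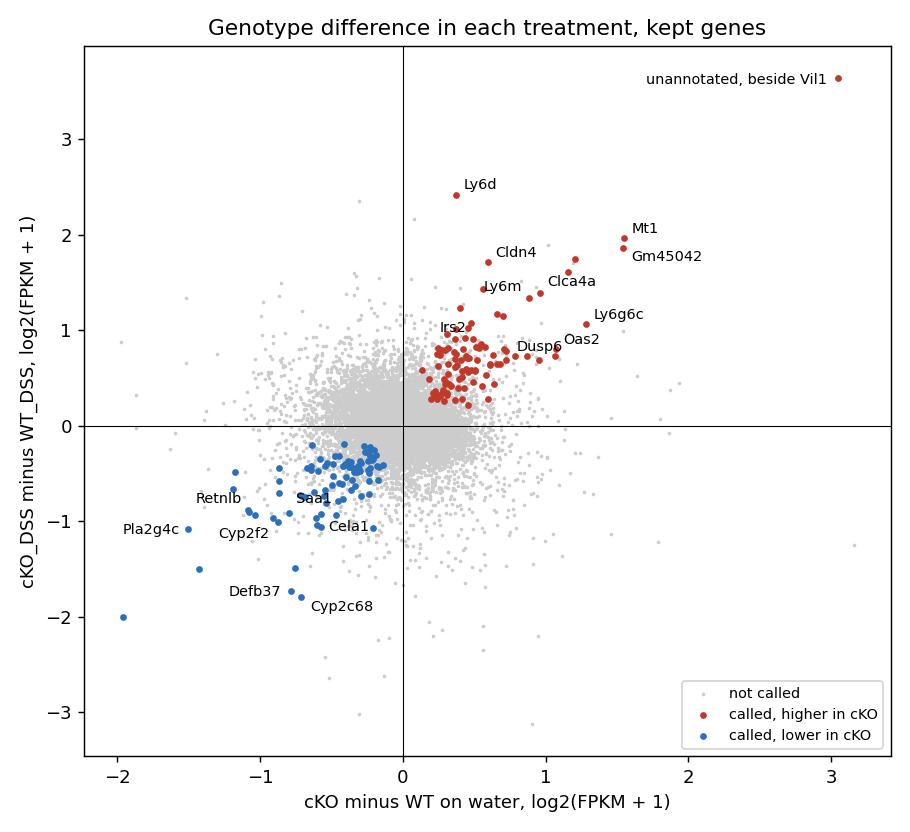
Genotype difference on water (x axis, cKO minus WT) against that after DSS (y axis, cKO_DSS minus WT_DSS), both in log2(FPKM + 1), for the 13255 kept genes, with 96 genes called higher in red, 86 called lower in blue and the others in grey. All called genes sit in the upper right or lower left quadrant, and an unannotated transcript beside Vil1, described below, lies farthest from the origin.

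Libraries held 13911823 to 16414914 reads, with 4.74 to 15.1% from mitochondrial genes. Epithelial markers summed to 8374 to 8953 FPKM in cKO, 8810 to 10970 in WT, 8693 to 11410 in cKO_DSS and 7954 to 9160 in WT_DSS libraries, so that the labelled cell type was present throughout. In these bulk samples, fewer cells of a type and less RNA per cell cannot be told apart. No member of 10 lists of markers of epithelial, immune, stromal, neural and sex-linked genes was called (limma; at an unadjusted p under 0.05, 2 epithelial, 1 macrophage and 1 smooth muscle marker were higher), but some sums differed after DSS. The sum of 8 neutrophil markers was 39.9 to 76.9 FPKM in cKO_DSS and 31.7 to 39.4 FPKM in WT_DSS libraries, and Ly6g, itself a member of the LY6 family, made up nearly all of it, at 39.9 to 76.7 FPKM in cKO_DSS and 31.5 to 38.9 FPKM in WT_DSS libraries. The other 7 summed to 0 to 0.228 FPKM in cKO_DSS and 0.161 to 0.497 FPKM in WT_DSS libraries. The sum of 9 fibroblast markers was 12.6 to 14.6 FPKM in cKO_DSS and 15.6 to 19.8 FPKM in WT_DSS libraries. On water these sums overlapped, and their part in the results was not tested. The genotype difference was correlated across genes with GC content in opposite directions in the treatments, with a Spearman rho of -0.52 on water, 0.38 after DSS and -0.10 for the mean. After GC content was corrected for in every library, 389 genes were called, 179 of the 182 among them. Across genes the mean difference also had a Spearman rho of 0.17 with gene length. Median length was 3812 bases for genes called higher, 2364 for those called lower and 3640 for all kept genes. After a correction for length 186 genes were called, 154 of the 182 among them. Reads of 4 Y-linked genes were 0 in cKO 3, cKO 4 and WT 3 and above 0 in the other libraries, and sex-linked levels ran with treatment. The water libraries had 0 to 1856 such reads and 33.2 to 104.9 FPKM of Xist, and the DSS libraries had 2681 to 4533 such reads and at most 0.0268 FPKM of Xist, except for 20.5 FPKM in WT_DSS 2. Both were clearly present in cKO 1, cKO 2, WT 1, WT 2, WT 4 and WT_DSS 2. Those water libraries had 635 to 1856 Y-linked reads and 33.2 to 79.4 FPKM of Xist. Whether such libraries pooled animals of both sexes was not tested. With the Y-linked level as a covariate 181 genes were called, 161 of the 182 among them. cKO_DSS 3 and cKO_DSS 4 stood apart on the second principal component, at -33.9 and -32.2 against -17.1 to 21.2 in the other libraries. Without these 2 libraries 319 genes were called, 127 of the 182 among them.

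Rictor itself (chromosome 15, 6708379 to 6800401, mm10) had 2.22 to 2.75 FPKM in cKO and 2.17 to 3.14 FPKM in WT libraries, and 1.92 to 2.96 FPKM in cKO_DSS and 2.82 to 4.16 FPKM in WT_DSS libraries. The genotypes overlapped in both treatments. Its log2 difference was -0.26 ± 0.09 (SE), -0.13 on water and -0.40 after DSS, with an adjusted p of 0.172 (limma). An exact two-sided permutation test within treatments gave p = 0.0127 over 4900 arrangements. A gene-level value also counts exons outside a floxed segment, and the deleted exons are not given in the labels, so that it checks the deletion only in part. None of the 12 kept mTOR complex genes was called (limma), and 1, Rictor, had an unadjusted p under 0.05. Mapkap1, which encodes the mTORC2 subunit SIN1, had a log2 difference of -0.10 ± 0.05 and an adjusted p of 0.411.

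The largest difference belonged to an unannotated transcript on chromosome 1 (74401192 to 74408246, minus strand, mm10), which ends 1129 bases from the start of Vil1, the gene of the epithelial actin-bundling protein villin. It had 20.8 to 23.1 FPKM in the cKO libraries and 20.4 to 25.6 FPKM in the cKO_DSS libraries. Among the WT libraries it had 0.171 FPKM in WT 1 and WT 4, 1.83 in WT 2 and 14.9 in WT 3, and among the WT_DSS libraries it had 0.148 to 0.196 FPKM in WT_DSS 1, 2 and 3 and 6.87 in WT_DSS 4. The genotypes therefore did not overlap, but 3 of the 8 WT libraries held many more of its reads than the other 5, which had 15 to 20 reads each. The log2 difference was 3.34 ± 0.49 with an adjusted p of 0.00302 (limma). Villin-Cre transgenes are built with regulatory sequence of the villin gene, but the construct used here is not given in the labels, and the source of these reads was not tested. Nor was it tested whether every WT mouse carried the transgene as labelled. For a WT mouse without it, Rictor deletion and Cre carriage cannot be told apart in the genotype difference. Vil1 had 157.5 to 270.0 FPKM in libraries of either genotype.

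**Figure D2:**
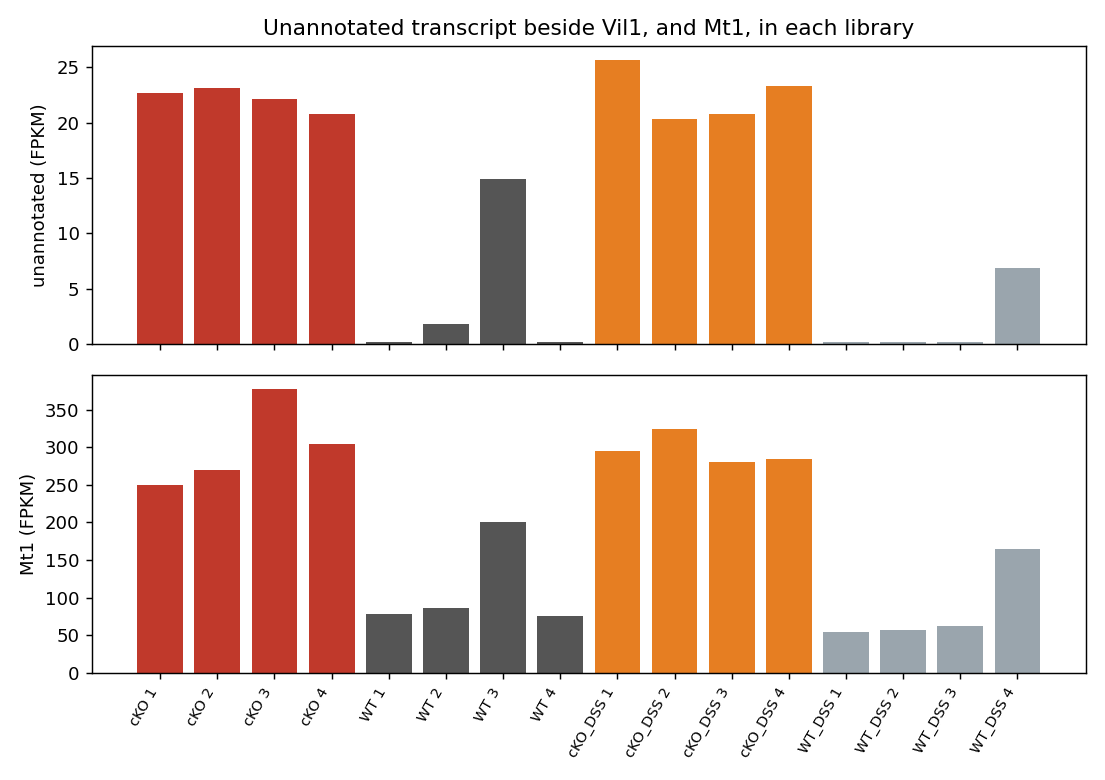
FPKM of the unannotated transcript beside Vil1 (top) and of Mt1 (bottom) in each of the 16 libraries, as bars from 0. Both are high in all 8 Rictor-deleted libraries, and WT 3 and WT_DSS 4 are the highest WT libraries for each.

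The metallothionein gene Mt1 (chromosome 8, 94179082 to 94180327), which encodes a zinc- and copper-binding protein, had the largest rise of the annotated protein-coding genes. It had 249, 269.6, 378 and 304 FPKM in cKO and 78.3, 85.8, 201 and 75.8 FPKM in WT libraries. After DSS it had 294, 324, 280.3 and 284 FPKM in cKO_DSS and 54.2, 56.3, 61.97 and 165 FPKM in WT_DSS libraries. No WT library reached a Rictor-deleted one, and the highest were WT 3 and WT_DSS 4, which also held reads of the unannotated transcript. The source of the Mt1 reads was not tested either. The log2 difference was 1.76 ± 0.23 with an adjusted p of 0.00181 (limma). Its neighbour and relative Mt2 went the other way by value, at 1.13 to 3.90 FPKM in cKO and 1.49 to 6.26 in WT, and 0.870 to 5.85 in cKO_DSS and 5.09 to 10.8 in WT_DSS libraries (log2 difference -0.98, adjusted p 0.0984, not called). Without WT 2, WT 3 and WT_DSS 4, a comparison chosen after seeing the data, 142 genes were called, 109 of them among the 182, with both Mt1 and the unannotated transcript among them.

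Of 13 kept genes of the LY6 family, small cysteine-rich proteins mostly anchored to the cell surface by a lipid tail, 4 were called higher and 0 lower, against the 0.724% called higher among all kept genes. All 13 had a positive mean difference, with a median of 0.30, and 10 were positive in both treatments. Ly6g6c (chromosome 17, 35065388 to 35070050) had the smallest adjusted p of the whole comparison, shared with the noncoding 3930402G23Rik. It had 5.17, 5.99, 4.84 and 4.89 FPKM in cKO and 1.86, 1.67, 1.32 and 1.37 FPKM in WT libraries. After DSS it had 2.66, 3.88, 3.34 and 3.42 FPKM in cKO_DSS and 0.896, 1.43, 0.911 and 1.06 FPKM in WT_DSS libraries. The groups were separate in both treatments, with lower means after DSS in both genotypes, and the log2 difference was 1.17 ± 0.08 with an adjusted p of 1.94e-06 (limma). Ly6m rose by 1.11 ± 0.16 on the log2 scale (adjusted p 0.00322). Ly6d and Ly6c1 differed mainly after DSS. Ly6d, a marker of stratified epithelium, had 8.25 to 18.1 FPKM in cKO_DSS and 0.655 to 2.88 FPKM in WT_DSS libraries, but 0.617 to 1.88 FPKM in cKO and 0.270 to 0.945 FPKM in WT libraries, which overlapped. Ly6d was called in 5 and Ly6c1 in 10 of the 16 fits that left out 1 library, with highest adjusted p of 0.0858 (Ly6d, without WT_DSS 1) and 0.0644 (Ly6c1, without WT_DSS 2).

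Clca4a and Clca4b, which encode secreted regulators of calcium-activated chloride currents at the surface of colonocytes, were the 2 of 7 kept CLCA genes called, both higher. Clca4a (chromosome 3, 144952480 to 144975045) had 78.3, 105, 115 and 108 FPKM in cKO and 50.7, 40.0, 73.4 and 46.3 FPKM in WT libraries, and 115, 117, 105 and 96.4 FPKM in cKO_DSS against 39.6, 38.9, 41.4 and 42.8 FPKM in WT_DSS libraries. The groups were separate in both treatments, and the log2 difference was 1.17 ± 0.12 (adjusted p 0.000154). An antisense gene, Gm16233, overlaps Clca4a and was also called (log2 difference 0.64), and without stated use of strand their reads may be shared. Clca4b rose by 0.80 ± 0.19 (adjusted p 0.0442) and was called in 4 of the 16 fits that left out 1 library (highest adjusted p 0.0924, without cKO_DSS 2). Among 22 tight junction and adhesion genes, 2 were called higher and 0 lower. Cldn4, which encodes a claudin that seals the junction, had 17.5 to 26.7 FPKM in cKO and 12.4 to 17.3 in WT libraries, and 47.3 to 76.2 FPKM in cKO_DSS and 14.8 to 19.2 in WT_DSS libraries, with a log2 difference of 1.15 ± 0.18 (adjusted p 0.00441). The separation was much wider after DSS than on water. Tjp1, encoding the scaffold protein ZO-1, rose by 0.31 ± 0.07 (adjusted p 0.0477), and its call was lost in all 16 fits that left out 1 library.

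**Figure D3:**
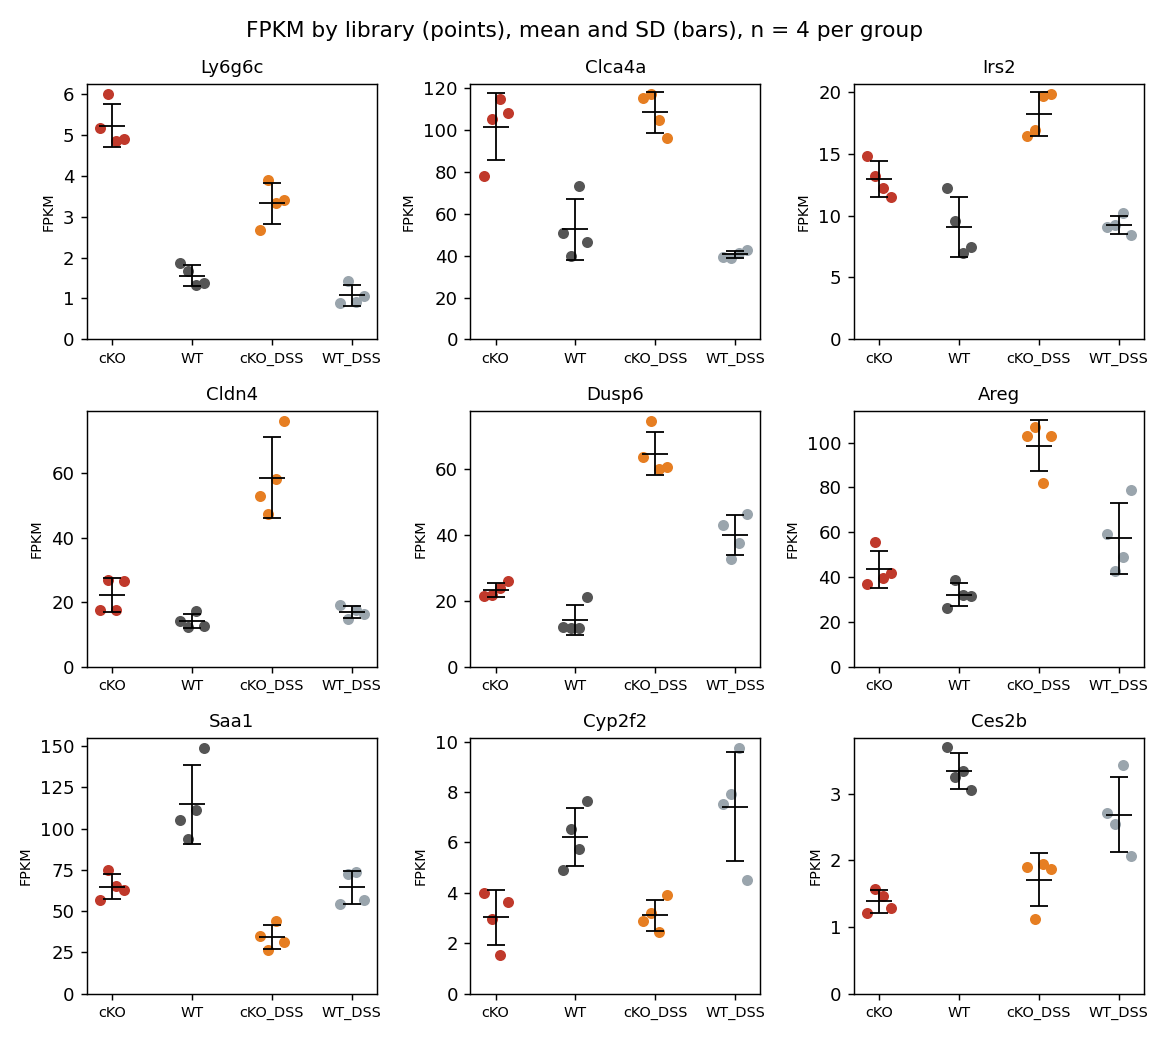
FPKM in each library (points) with the mean and SD (bars, n = 4 per group) for 9 called genes in the 4 groups. Ly6g6c, Clca4a, Cldn4, Dusp6, Saa1, Cyp2f2 and Ces2b show no overlap between genotypes in either treatment, while Irs2 and Areg overlap on water.

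The upstream sequences of Areg, Cldn4 and Saa1 are shown because these genes stand for the growth factor, junction and acute phase groups. Only windows with a match to a searched motif were kept for display, so that a match in them is no finding. The sequences are RefSeq sequences of build GRCm38.p6 for the 250 bases before each gene's start, given 5′ to 3′ on the gene's strand. Matches to the motif named on each line, on either strand, are in capitals, and matches to other searched motifs are not marked.
Areg chr5:91139349-91139598, plus strand, cAMP response element TGACGTCA: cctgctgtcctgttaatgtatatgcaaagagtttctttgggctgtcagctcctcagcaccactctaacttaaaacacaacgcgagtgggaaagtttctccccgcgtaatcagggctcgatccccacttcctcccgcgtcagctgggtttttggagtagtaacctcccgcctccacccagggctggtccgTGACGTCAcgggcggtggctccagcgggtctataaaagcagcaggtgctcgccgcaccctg
Cldn4 chr5:134946935-134947184, minus strand, AP-1 motif TGANTCA: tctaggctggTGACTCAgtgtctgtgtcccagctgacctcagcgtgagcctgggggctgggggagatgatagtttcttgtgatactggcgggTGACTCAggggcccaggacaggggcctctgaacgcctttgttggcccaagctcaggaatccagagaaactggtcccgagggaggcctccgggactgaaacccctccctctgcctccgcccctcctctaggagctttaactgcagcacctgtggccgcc
Saa1 chr7:46742981-46743230, minus strand, C/EBP motif TTGCNNAA: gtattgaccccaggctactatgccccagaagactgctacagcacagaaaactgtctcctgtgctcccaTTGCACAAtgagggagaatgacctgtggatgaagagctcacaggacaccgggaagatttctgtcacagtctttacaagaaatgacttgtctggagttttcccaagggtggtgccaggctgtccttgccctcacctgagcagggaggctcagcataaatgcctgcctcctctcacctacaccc
Of 94 named genes called higher, 54 had an upstream sequence in the RefSeq table, and of 85 called lower, 57 did. The TGACGTCA motif stood in 3.7% of the genes called higher, 1.75% of those called lower, 2.79% of the 8961 kept genes with a sequence and 1.62% of all 27025 RefSeq upstream sequences. In the same sets the TGANTCA motif stood in 3.7%, 7.02%, 4.45% and 6.87%, and the TTGCNNAA motif in 0%, 8.77%, 7.34% and 9.55%. Among other motifs searched, CCGGAAG of ETS factors stood in 1.85%, 8.77%, 14.5% and 7.05%. GTAAACA of FOXO factors stood in 3.7%, 0%, 2.34% and 3.09%. For these motifs no count among the called genes exceeds 5, so that the shares are descriptions of single windows.

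Genes that restrain receptor tyrosine kinase and MAPK signalling held the largest share of called members among the lists: 8 of 17 kept members (47.1%) were called higher and 0 lower, and the median log2 difference over the list was 0.36, against 0.00 over all kept genes. Dusp6, the phosphatase that removes phosphate from ERK, had 21.5, 21.7, 23.7 and 26.02 FPKM in cKO and 11.9, 11.7, 11.6 and 21.1 FPKM in WT libraries. After DSS it had 63.6, 74.4, 59.996 and 60.7 FPKM in cKO_DSS and 43.0, 32.7, 37.5 and 46.3 FPKM in WT_DSS libraries. No WT library reached a Rictor-deleted one of the same treatment, although WT 4 came close. Its log2 difference was 0.71 ± 0.11 (adjusted p 0.00461, limma). Dusp4, a nuclear ERK phosphatase, rose by 0.69 ± 0.12 (adjusted p 0.0101), and Errfi1, which binds and inhibits EGFR, by 0.67 ± 0.10 (adjusted p 0.00424). Spry4 and Spred1, adaptor proteins that block the step from receptor to RAF, rose by 0.53 ± 0.09 (adjusted p 0.0108) and 0.44 ± 0.08 (adjusted p 0.011). Those 5 stayed called whichever library was left out. Dusp5, Dusp10 and Spred2 had log2 differences of 0.68, 0.50 and 0.26 and were called in 6, 5 and 8 of the 16 fits that left out 1 library, with highest adjusted p of 0.0796 (Dusp5) and 0.0857 (Dusp10), both without WT_DSS 2, and 0.0707 (Spred2, without WT_DSS 1). Of the 8, 8 were called with GC correction and 6 without WT 2, WT 3 and WT_DSS 4.

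**Figure D4:**
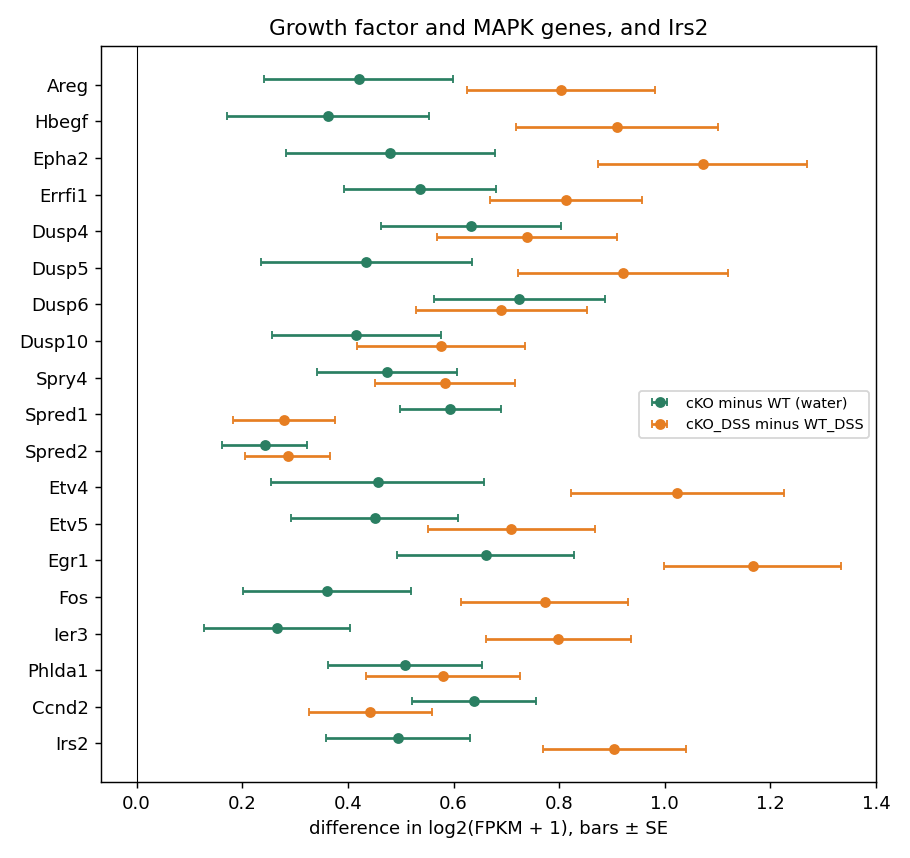
Genotype difference in log2(FPKM + 1) with its SE, cKO minus WT on water in green and cKO_DSS minus WT_DSS in orange. Only genes called higher are drawn, picked from growth factor, MAPK and insulin signalling. All points lie to the right of 0 by this choice, since every called gene had the same sign in both treatments. Members not drawn include negative mean differences: 3 of 17 kept MAPK brakes, 3 of 8 EGF genes and 9 of 26 insulin and FOXO genes were negative.

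Among 8 kept EGF ligand and receptor genes, 2 were called higher and 0 lower. Areg, which encodes the EGFR ligand amphiregulin, had 36.9 to 55.4 FPKM in cKO and 25.9 to 38.8 in WT libraries, and 81.9 to 107 FPKM in cKO_DSS and 42.5 to 78.9 in WT_DSS libraries. The genotypes overlapped on water and were separate after DSS, with a log2 difference of 0.61 ± 0.13 (adjusted p 0.0312). Hbegf, encoding the heparin-binding ligand of the same receptor, rose by 0.64 ± 0.15 (adjusted p 0.0445). Areg was called in 8 and Hbegf in 4 of the 16 fits that left out 1 library, with highest adjusted p of 0.0698 (Areg, without WT_DSS 3) and 0.0947 (Hbegf, without WT_DSS 2).

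Several further called genes, some of them chosen after their values were seen, are known in other settings as targets of ERK signalling. Egr1, an immediate early factor, had 77.2 to 126 FPKM in cKO and 49.8 to 64.5 in WT libraries, and 66.1 to 115 FPKM in cKO_DSS and 35.2 to 43.3 in WT_DSS libraries, with no overlap (log2 difference 0.91 ± 0.13, adjusted p 0.00278). The ETS factors Etv4 and Etv5 rose by 0.74 ± 0.16 and 0.58 ± 0.11. Phlda1 and Ccnd2, which encodes cyclin D2, rose by 0.54 each, with adjusted p of 0.0125 and 0.00441. Epha2, encoding an ephrin receptor, rose by 0.78 ± 0.15 (adjusted p 0.0208). Of 22 kept immediate early and handling-stress genes, 4 were called higher (Egr1, Fos, Ier3, Klf6) and 0 lower, 21 had a positive mean difference, and the median was 0.07 on water and 0.76 after DSS. Many of these genes also respond to the handling of tissue, and its part in the result was not tested. Etv4 was called in 13, Epha2 in 15, Fos in 8, Ier3 in 7 and Klf6 in 3 of the 16 fits that left out 1 library. Their highest adjusted p were 0.0617 (Etv4, without cKO_DSS 2), 0.0505 (Epha2, without WT_DSS 1), 0.0707 (Fos, without WT_DSS 2), 0.0737 (Ier3, without WT_DSS 1) and 0.0894 (Klf6, without WT_DSS 3).

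Of 26 kept genes of insulin signalling and FOXO targets, 4 were called higher (Irs2, Errfi1, Klf6, Trib1) and 0 lower, with a median log2 difference of 0.12. Errfi1 is also counted among the MAPK brakes and Klf6 among the immediate early genes, so that these lists are not independent. Irs2 (chromosome 8, 10984681 to 11008458), the adaptor that couples the insulin receptor to PI3K, had 14.8, 13.2, 12.2 and 11.5 FPKM in cKO and 12.2, 9.59, 6.96 and 7.46 FPKM in WT libraries, and 16.4, 16.9, 19.7 and 19.8 FPKM in cKO_DSS and 9.10, 9.23, 10.2 and 8.46 FPKM in WT_DSS libraries. WT 1 lay within the range of the cKO libraries on water, and the groups were separate after DSS. The log2 difference was 0.70 ± 0.11 (adjusted p 0.00407, limma). 3930402G23Rik, an annotated long noncoding RNA, and Gm45042, an annotated processed pseudogene, lie beside Irs2 (10924427 to 10930097) and rose by 1.48 ± 0.11 and 1.70 ± 0.19. 3930402G23Rik had 3.01 to 3.87 FPKM in cKO and 0.546 to 1.11 in WT libraries, and 3.12 to 4.59 FPKM in cKO_DSS and 0.347 to 0.625 in WT_DSS libraries, without overlap. Trib1 had a log2 difference of 0.43 and was called in 2 of the 16 fits that left out 1 library (highest adjusted p 0.0931, without WT_DSS 2).

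Sgk2, which encodes a kinase of the SGK family, was lower by value, at -0.32 ± 0.10, without passing the test (adjusted p 0.126).

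Of 32 kept type I interferon response genes, 3 were called higher (Oas2, Ifi27l2a, Oas1b) and 0 lower, 31 had a positive mean difference and 20 were positive in both treatments. Oas2, which encodes a sensor enzyme of double-stranded RNA, had 21.7 to 41.0 FPKM in cKO and 8.30 to 21.1 in WT libraries, and 59.7 to 86.9 FPKM in cKO_DSS and 38.6 to 43.6 in WT_DSS libraries (log2 difference 0.94 ± 0.17, adjusted p 0.0116). The median difference of the list was 0.37 on water and 0.07 after DSS. Ifi27l2a and Oas1b were called in 9 and 4 of the 16 fits that left out 1 library, with highest adjusted p of 0.0707 (Ifi27l2a, without WT_DSS 2) and 0.105 (Oas1b, without WT_DSS 3). In contrast, 0 of 26 kept MHC class II and interferon gamma response genes were called (limma), 7 were lower and 1 higher at an unadjusted p under 0.05, and 18 of the 26 had a negative mean difference. Cd74, the class II invariant chain, had 14.8 to 26.6 FPKM in cKO and 42.9 to 112 in WT libraries, and 52.3 to 64.5 FPKM in cKO_DSS and 55.1 to 93.9 in WT_DSS libraries, a log2 difference of -0.94 that was not called (adjusted p 0.076).

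Among 20 kept genes of epithelial antimicrobial defence, 0 were called higher and 3 lower. Saa1, encoding the acute phase protein serum amyloid A1, had 56.8, 74.8, 65.5 and 62.6 FPKM in cKO and 105, 93.8, 111 and 149 FPKM in WT libraries. After DSS it had 34.9, 26.4, 43.8 and 31.4 FPKM in cKO_DSS and 54.4, 72.8, 73.4 and 57.0 FPKM in WT_DSS libraries. The groups were separate in both treatments, and Saa1 fell by 0.85 ± 0.11 on the log2 scale (adjusted p 0.00181, limma). Retnlb, the goblet cell gene of the bactericidal protein RELM-beta, fell by 0.99 ± 0.22 (adjusted p 0.0374), and Defb37, a beta-defensin gene, by 1.25 ± 0.30 (adjusted p 0.0481). Retnlb was called in 5 and Defb37 in 4 of the 16 fits that left out 1 library, with highest adjusted p of 0.0756 (Retnlb, without WT_DSS 1) and 0.104 (Defb37, without WT_DSS 2). The Ly6g level and the fibroblast sum given above also differed after DSS.

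Of 47 kept genes of xenobiotic metabolism, 5 were called lower (Cyp2c68, Cyp2d26, Cyp2f2, Ces2b, Gsto1) and 1 higher (Abcb1a, the drug efflux pump), against 0.649% and 0.724% of all kept genes. Cyp2f2, a cytochrome P450 that oxidises small aromatic compounds, had 1.52 to 4.01 FPKM in cKO and 4.92 to 7.64 in WT libraries, and 2.44 to 3.93 FPKM in cKO_DSS and 4.52 to 9.74 in WT_DSS libraries (log2 difference -0.94 ± 0.15, adjusted p 0.00536). Cyp2c68 had 11.1 to 20.1 FPKM in cKO and 26.7 to 29.5 in WT libraries, and 7.98 to 18.8 FPKM in cKO_DSS and 43.0 to 63.3 in WT_DSS libraries (log2 difference -1.25 ± 0.20, adjusted p 0.00536). Ces2b, a carboxylesterase, had 1.21 to 1.58 FPKM in cKO and 3.07 to 3.71 in WT libraries, and 1.13 to 1.95 FPKM in cKO_DSS and 2.06 to 3.43 in WT_DSS libraries (-0.65 ± 0.10, adjusted p 0.00424). Cyp2d10 and Cyp2d12, near Cyp2d26 in a cluster of similar genes on chromosome 15, fell by 0.52 and 0.59 on the log2 scale, and reads may be split among such relatives. Cyp2d10 was called in 12 of the 16 fits that left out 1 library (highest adjusted p 0.0563, without cKO_DSS 2). Gsto1 and Abcb1a were each called in 5 of the 16 fits that left out 1 library, with highest adjusted p of 0.0743 (Gsto1, without WT_DSS 1) and 0.0778 (Abcb1a, without WT_DSS 2).

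Of 39 kept nuclear genes of the respiratory chain, 0 were higher, all 39 had a negative mean difference with a median of -0.23, and 30 were lower in both treatments (76.9%, against 20.9% of all kept genes). At an unadjusted p under 0.05, 22 of the 39 were lower, against 13.8% of all kept genes in either direction. Uqcrb, a subunit of complex III, was called lower (log2 difference -0.47 ± 0.09, adjusted p 0.0123). Tomm7, of the mitochondrial outer membrane import complex and not in the list, fell by 0.98 ± 0.19 (adjusted p 0.0154). Genes called lower had a shorter median length than all kept genes. Uqcrb stayed called in all 31 alternative settings, the correction for gene length among them. The part of length in the falls of the list as a whole was not tested. Of 39 kept cholesterol and fatty acid synthesis genes, 3 were called lower and 0 higher: Fads1 and Fads3, fatty acid desaturase genes, at -0.50 ± 0.09 (adjusted p 0.0108) and -0.42 ± 0.09 (adjusted p 0.0307), and Tm7sf2, a sterol reductase gene, at -0.33 ± 0.08 (adjusted p 0.0426). Of 29 kept fatty acid oxidation and PPAR target genes, only Hsd17b13, a lipid droplet enzyme gene, was called, at -0.72 ± 0.10 (adjusted p 0.00239). None of 28 kept glycolysis and hypoxia genes was called (limma), and 6 were lower and 1 higher at an unadjusted p under 0.05. Fads3 was called in 9 and Tm7sf2 in 4 of the 16 fits that left out 1 library, with highest adjusted p of 0.0661 (Fads3, without WT_DSS 2) and 0.0818 (Tm7sf2, without WT_DSS 3).

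**Figure D5:**
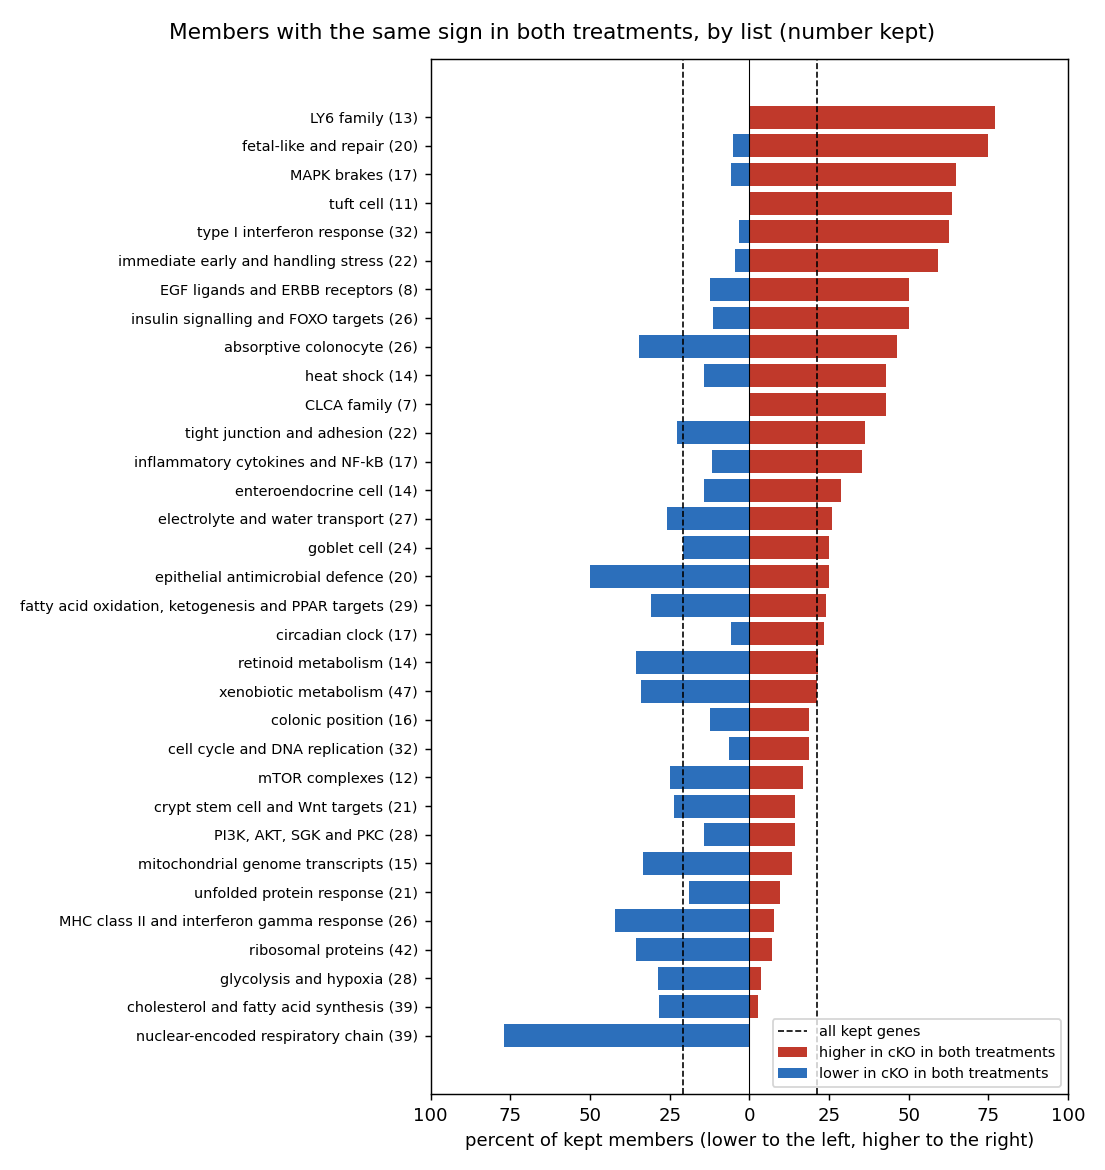
Percent of the kept members of each gene list, cell type marker lists not shown, whose difference had the same sign in both treatments, higher in the Rictor-deleted libraries (red, right) or lower (blue, left), with the number kept in parentheses and dashed lines for all kept genes at 21.2% higher and 20.9% lower. LY6 genes, fetal-like and repair genes and MAPK brakes lie highest on the right among the lists shown, and nuclear-encoded respiratory chain genes lie farthest to the left at 76.9%.

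Of 26 kept absorptive colonocyte genes, 4 were called lower (Guca2b, Mep1a, Mep1b, Saa1) and 0 higher. The list as a whole did not lean one way: 13 had a positive and 13 a negative mean difference, 12 were higher and 9 lower in both treatments, and the median was -0.01. At an unadjusted p under 0.05, 5 were higher and 7 lower. Guca2b, encoding the hormone uroguanylin, fell by 0.46 ± 0.09 on the log2 scale (adjusted p 0.0237), and Mep1a, a subunit of the brush border protease meprin, by 0.45 ± 0.09 (adjusted p 0.0268). Of 27 kept electrolyte and water transport genes, 2 were called lower (Trpm6, the magnesium channel, and Guca2b) and 0 higher. Insl5, an enteroendocrine hormone gene of the distal colon, was the 1 of 14 kept enteroendocrine genes called, at -0.53 ± 0.12 (adjusted p 0.0445). Mep1a, Guca2b and Trpm6 were each called in 13, and Mep1b and Insl5 in 3, of the 16 fits that left out 1 library. Their highest adjusted p were 0.0582 (Mep1a) and 0.0551 (Trpm6), both without WT_DSS 2, 0.0527 (Guca2b) and 0.0921 (Insl5), both without cKO_DSS 2, and 0.0924 (Mep1b, without WT_DSS 2). Of 20 kept fetal-like and repair genes, 4 were called higher (Ly6d, Cldn4, Il1rn, Areg) and 0 lower, and 15 were higher in both treatments. All 4 are also members of other lists, those of the LY6 family, tight junctions, inflammatory cytokines and EGF ligands. None of the 21 kept stem cell, 11 tuft cell, 32 cell cycle, 17 clock or 42 ribosomal protein genes was called (limma). At an unadjusted p under 0.05, 7 ribosomal protein genes were lower, 4 tuft cell genes were higher, 2 stem cell genes were higher and 2 lower, 1 cell cycle gene was higher, and 0 clock genes passed.

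Several of the genes with the largest falls belong to none of these groups. Pla2g4c, a phospholipase A2 gene, had the largest fall of the named protein-coding genes, at -1.29 ± 0.28 (adjusted p 0.0307). It had 15.99 to 26.4 FPKM in cKO and 40.7 to 120.1 in WT libraries, and 17.4 to 66.8 FPKM in cKO_DSS and 59.9 to 117 in WT_DSS libraries, separate on water and overlapping after DSS. Cela1, an elastase gene, had 43.6 to 57.3 FPKM in cKO and 60.3 to 106 in WT libraries, and 44.4 to 55.4 FPKM in cKO_DSS and 90.1 to 114 in WT_DSS libraries, separate in both (log2 difference -0.82 ± 0.12, adjusted p 0.00278). Ak4, a mitochondrial adenylate kinase gene, and Cdkl1, a kinase gene, fell by 0.83 and 0.79. Pla2g4c was called in 10 and Ak4 in 14 of the 16 fits that left out 1 library, with highest adjusted p of 0.0701 (Pla2g4c, without WT_DSS 2) and 0.0574 (Ak4, without cKO_DSS 2).

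Successive called genes lay within 100000 bases of each other in 13 pairs, 24 genes in all, and both members of every pair had the same sign. The same share over all kept genes was not computed, so that the count shows no clustering beyond that of genes in general. Some pairs overlap, such as Cd200r2 with Gm17928 and Gm16233 with Clca4a, and may share reads. Besides the Irs2 and Clca4 pairs these included Oas2 with Oas1b on chromosome 5 and Arc with Ly6d on chromosome 15. Chromosomes 15 and 19 held 16 of 513 (3.12%) and 14 of 449 (3.12%) called genes and chromosome 18 held 10 of 349 (2.87%), against 1.37% of all kept genes. Rictor lies on chromosome 15 (6708379 to 6800401). Whether its locus has a part in the share of called genes there was not tested.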

How the data were processed

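RNA sequencing of colonic epithelial cells gave 16 libraries, 4 in each of the 4 groups that the labels name. The authors kept only reads of good quality without adapters or undetermined bases, per the labels' protocols. The submitters' processing notes list the mm10 build, DESeq2 1.20.0 and featureCounts 1.5.0-p3. An aligner and the use of strand are not given in the sources used. The deposited values are FPKM for 56268 genes, in 1 column per library. FPKM multiplied by gene length came out as whole reads (within 0.05), 13911823 to 16414914 per library. Genes with few reads, such as those near the filter, are measured less precisely at such depths.

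From these, log2(FPKM + 1) of the 13255 genes that reached 1 FPKM in 4 or more libraries was fitted with limma 3.58.1 in R 4.3.3 (genotype plus treatment, eBayes with a trend), two-sided and adjusted by the Benjamini-Hochberg method over all kept genes. The genotype coefficient is the mean of both within-treatment differences. A 4-group model gave the interaction and the single-treatment differences. The fit was tested on simulated data. At the filter, 381 genes reached 1 FPKM in exactly 4 libraries and 482 in exactly 3. The nearest gene outside the threshold was Kif21b (adjusted p 0.05027).

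The members and gene lists were chosen with earlier results of these data known. Some lists share members. Genes were named by rule: Rictor and the mTOR complexes, the 15 called protein-coding genes that rose most and the 15 that fell most with the same sign in both treatments (predicted genes and antigen receptor segments excepted), the 5 smallest p in each direction, and up to 4 members of each list with the smallest p. Spred1, Spred2, Dusp5, Dusp10, Etv5, Phlda1, Ccnd2, Gsto1, Abcb1a, Cyp2d10, Mt2, Gm45042, Gm16233, 3930402G23Rik and the unannotated transcript beside Vil1 fell outside the rule and were chosen after their values were seen. Many of the 182 called genes are not named here.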

Additional observations from a re-analysis of the deposited data

Results flagged for a closer look

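Within groups of 4 libraries, a library was marked where its gap to the nearest of the others, divided by the range of the group, exceeded Dixon's 95% critical value. Over 336 groups of 84 genes examined, 25 were marked, and chance marks about 1 in 20 groups. The gap ratio was 0.921 for Mt1 in WT 3 and 0.93 in WT_DSS 4, and 0.887 for the unannotated transcript beside Vil1 in WT 3 and 0.993 in WT_DSS 4, each the highest of its group. These are the libraries in which both features were high among the WT groups.

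Libraries that stood highest in other WT groups were WT 4 for Dusp6 (0.971), Cyp2d10 (0.943) and H2-Ab1 (0.961), WT 1 for Mapkap1 (0.902), WT_DSS 1 for Gm29051 (1.0), WT_DSS 3 for Ifi27l2a (0.924), Bcas1 (0.971) and Cyp2d10 (0.832), and WT_DSS 4 for Ak4 (0.841). Phlda1 (0.896) and Plpp1 (0.862) were lowest in WT_DSS 2. Among the Rictor-deleted groups, Bcas1 (0.95) was highest in cKO 2, Guca2b (0.889) in cKO 3, Fads1 (0.832) in cKO 4 and 0.831 in cKO_DSS 3, Ndufa1 (0.858) in cKO_DSS 1, and Tjp1 (0.833) and Ncoa7 (0.923) in cKO_DSS 2. Cela1 was lowest in cKO 3 (0.882), Areg in cKO_DSS 3 (0.837) and Ces2b in cKO_DSS 2 (0.899).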

How the results depend on the processing

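Against the 182 called genes, the replicate block gave 159 (138 shared), no filter on low values 97, a correction for GC content 389, a fit without cKO_DSS 3 and 4 together 319, a fit without WT 4 and WT_DSS 2 together 85 and a fold limit of 0.58 on the log2 scale 75. In these settings all calls again had the same sign in both treatments. Leaving out 1 library gave 86 (without WT_DSS 1) to 206 (without WT 2) calls. It gave 106 without cKO 2, 104 without cKO_DSS 2, 92 without WT_DSS 2 and 107 without WT_DSS 3, each below the main count by over 1.5 times, and such fits rest on fewer samples. In all 16 of these fits 77 genes were called, 49 higher and 28 lower, and 40 were called in every one of 31 alternatives. A filter at 5 FPKM was 1 of the 31, and a gene it removed was counted as not called. Only 133 of the 182 could therefore be among the 40. None of the 182 changed sign in a setting that tested it (133 were tested at 5 FPKM). Rictor was called after the correction for GC content (-0.29, adjusted p 0.0157) and for gene length (-0.32, adjusted p 0.0249, limma), and the cause was not tested. Same-numbered libraries correlated at -0.14 to 0.30 in their deviations from the group means, so that the numbers were not taken to pair them. The other settings gave 142 to 265 calls.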

Other observations

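Some single genes outside the lists also differed. They were chosen after their values were seen, and stand for no group. Dio1, a deiodinase, averaged 12.5 FPKM in cKO and 18.9 in WT, and 10.8 in cKO_DSS and 17.4 in WT_DSS libraries (log2 difference -0.61, adjusted p 0.0374, limma). Selenop, the selenium carrier of plasma, had a log2 difference of -0.37 (adjusted p 0.0307), Selenos -0.41 (adjusted p 0.0159) and Prdx6, a peroxiredoxin, -0.56 (adjusted p 0.0172). Selenos and Prdx6 were called in all 16 fits that left out 1 library, Selenop in 7 and Dio1 in 5. Slc40a1, the iron exporter ferroportin, averaged 21.1 FPKM in cKO and 24.97 in WT, and 27.5 in cKO_DSS and 45.3 in WT_DSS libraries (-0.47, adjusted p 0.0255). Sting1, the adaptor of cytosolic DNA sensing, averaged 4.28 FPKM in cKO and 2.97 in WT, and 5.18 in cKO_DSS and 3.36 in WT_DSS libraries, separate in both treatments (0.46, adjusted p 0.00424).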
